A study of Mus musculus with 21 samples.

Results

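Hox cluster genes encode homeodomain transcription factors that set positional identity along the body axis. The members described here are all genes in the per-library tables whose symbol is Hox followed by a cluster letter from a to d and a position number. There were 23 such genes among the 25035 genes listed for either cell type, 17 in the epithelial tables and 20 in the fibroblast tables, with 14 in both. The annotation (GENCODE M21, GRCm38) holds 39 Hox genes, and the other 16 were not analysed here. By cluster, 8 of 11 HoxA genes, 9 of 10 HoxB genes, 3 of 9 HoxC genes and 3 of 9 HoxD genes were listed.

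Hox genes lie in clusters on different chromosomes in the order of their position numbers, and in the embryo the low-numbered genes at one end are used earlier and nearer the head than the high-numbered ones. Genes of the same number in different clusters, called paralogues, descend from one ancestral gene and can stand in for each other in part. In the lung, Hox genes are known mainly from the mesenchyme, and mice without Hoxa5 have malformed airways and often die at birth. Hox proteins bind DNA together with the TALE cofactors of the Pbx, Meis and Pknox families, and Polycomb and Trithorax complexes keep the clusters silent or active.

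The study followed 2 cell types of the mouse lung from late gestation to adulthood with 3'SAGE-seq, which counts transcripts by 1 short tag from the 3' part of each. All 21 libraries came from C57BL/6 mice transgenic for Col1a2-GFP, a green fluorescent reporter driven by a type I collagen gene, so the fibroblasts are those cells that used this reporter. Epithelial cells were sorted as Epcam positive and fibroblasts as Epcam negative and GFP positive, both without CD31, CD45, CD146 and Ter119, the markers of vessels, leukocytes, pericytes and red cells. The epithelial label at E18.5 names no GFP gate, although the protocol gives GFP negative for the epithelial sort in general. Both cell types had 2 libraries at each of embryonic day 18.5 (E18.5) and postnatal days 0.5, 2, 7 and 28 (P0.5 to P28), and fibroblasts had 1 more library at postnatal day 56 (P56). Replicates are numbered in the labels without naming animals. The p-values therefore reflect the spread of these samples alone, and that spread may be technical.

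Depth was 2146071 to 5729829 reads per library. A gene with no read could still hold up to 3, equal to 0.403 to 1.37 units of the deposited value. The P56 library stood apart. It had the most reads, the lowest sum of deposited values (769260, against 896099 to 1115577 in the other fibroblast libraries), and only 11.5% of reads in its 10 most abundant genes, against 16.8% to 20.02%. The 16 matrix markers summed to 13420 to 34284 in the fibroblast libraries and to 62.6 to 478 in the epithelial ones. In fibroblasts the 8 epithelial markers summed to 13.0 to 152 and the 7 endothelial markers to 0.853 to 14.9. In the epithelial libraries the 9 leukocyte markers summed to 1.12 to 1743, the highest at P28. The 5 erythroid markers summed to 55.5 to 7379 in the epithelial libraries and to 0.134 to 4230 in the fibroblast ones.

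Promoters are shown for Hoxa2, Hoxa5 and Hoxb4, which had 3 of the 4 largest rises between P28 and P56 described below. Each is the 250 bases before the gene start in RefSeq's GRCm38.p6 annotation, 5′ to 3′ on the gene's strand. They lie at chr6:52164832-52165081 on the minus strand, chr6:52204588-52204837 on the minus strand and chr11:96318017-96318266 on the plus strand. Capitals mark matches, on either strand, to TGATNNAT, the motif of Hox and Pbx pairs, to CCAAT, and to AGGTCA, the core site of retinoic acid receptors.
Hoxa2: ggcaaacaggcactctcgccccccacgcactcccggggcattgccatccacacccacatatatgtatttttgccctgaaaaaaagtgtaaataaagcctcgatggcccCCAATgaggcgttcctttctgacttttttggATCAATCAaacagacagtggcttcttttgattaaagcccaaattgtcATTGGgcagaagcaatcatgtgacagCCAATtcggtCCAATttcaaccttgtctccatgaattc
Hoxa5: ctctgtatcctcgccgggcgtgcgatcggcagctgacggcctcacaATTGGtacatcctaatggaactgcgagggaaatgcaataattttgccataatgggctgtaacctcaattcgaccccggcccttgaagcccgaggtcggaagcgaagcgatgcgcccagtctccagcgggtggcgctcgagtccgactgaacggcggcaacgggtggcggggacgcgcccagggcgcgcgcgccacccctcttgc
Hoxb4: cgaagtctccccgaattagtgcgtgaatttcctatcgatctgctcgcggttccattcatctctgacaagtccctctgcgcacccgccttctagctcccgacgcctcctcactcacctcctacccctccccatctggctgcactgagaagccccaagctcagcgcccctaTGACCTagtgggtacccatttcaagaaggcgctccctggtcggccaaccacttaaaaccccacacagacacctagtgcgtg
The Hoxa2 promoter held 1 match to TGATNNAT and 4 to CCAAT, the Hoxa5 promoter 1 to CCAAT and the Hoxb4 promoter 1 to AGGTCA. Of all 32851 promoters in the table, cut to the same length, 7.68% held TGATNNAT, 33.8% CCAAT and 4607 promoters AGGTCA, so a match to CCAAT is common. The Hoxa5 promoter was the richest of the 3 in CpG, with 28 CpG pairs and 63.6% G and C, against 14 and 58.0% for Hoxb4, 6 and 46.4% for Hoxa2, and medians of 6 and 52.4% over all promoters. Of the 23 members, 13 were in the promoter table.

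Fibroblasts carried nearly all of the Hox reads. Of 20 Hox genes listed in fibroblasts, the 12 of positions 2 to 7 in HoxA and HoxB were above 0 in all 11 libraries, and 8 were above 0 in some. Together they had 15193 reads, or 409 RPM (reads per 1e+06 reads). The P56 library, a stage without an epithelial counterpart, held 6785 of these reads. In the 10 other fibroblast libraries the Hox sum was 164 to 363 RPM each. In the 10 epithelial libraries no Hox gene was above 0 throughout, 13 were in some, others, such as Hoxa6, Hoxd3 and Hoxd9, were at 0, and the sum was 159 reads, or 4.58 RPM. The cells are sorted pools, so fewer cells of a type and less RNA per cell cannot be told apart.

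The leading Hox gene of fibroblasts changed with age. Levels of different genes were compared as deposited, because the method gives about 1 tag per transcript and values are not divided by length. Hoxb5, which shares a role in mouse lung branching with its paralogue Hoxa5, took 44.4% and 46.0% of Hox reads in the E18.5 libraries and was first in every library up to P7. Hoxa7 was first at P28, with 36.3% and 37.0%. Hoxa5 was first at P56, with 51.7% (95% Wilson interval 50.5% to 52.9%, counting error only).

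**Figure D1:**
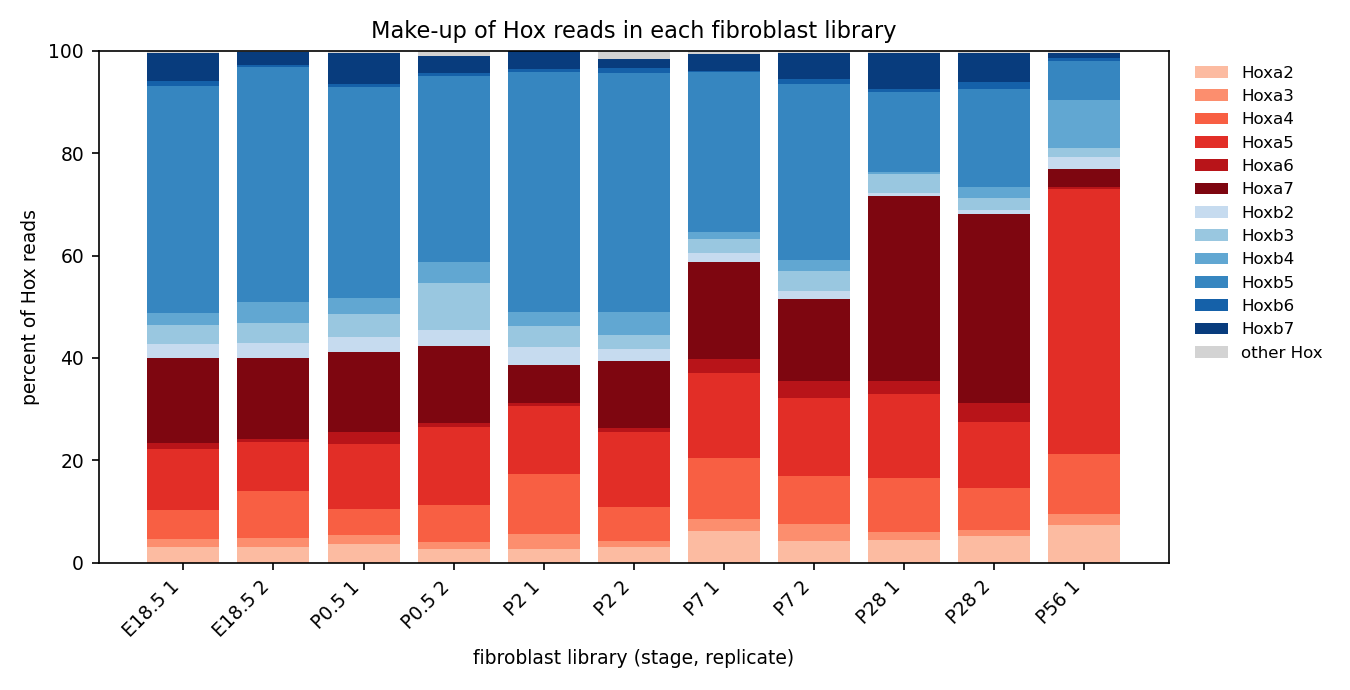
Percent of Hox reads (y axis) taken by each Hox gene in each of the 11 fibroblast libraries (x axis), HoxA genes in reds and HoxB genes in blues, with darker shades for higher position numbers. Hoxb5 falls from 44.4% and 46.0% at E18.5 to 7.61% at P56, where Hoxa5 holds 51.7%.

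The balance of the clusters turned over as well. HoxB genes held 60.0% of Hox reads in both E18.5 libraries, 28.2% and 31.4% at P28 and 22.7% at P56, and HoxA genes held nearly all the rest. HoxC had 0 to 2 reads a library, and no HoxD gene was listed. By value, the HoxB genes summed to 230.1 and 216 at E18.5 and to 57.6 and 53.4 at P28. The HoxA genes summed to 153 and 144 at E18.5 and to 147 and 116 at P28. Thus the HoxB sums of the 2 ages lay far apart, while the HoxA ranges overlapped. The HoxA sums include Hoxa7, at 63.5 and 56.7 at E18.5 and 74.1 and 63.0 at P28. Of the 12 members tested, 8 had both P28 libraries below both E18.5 libraries, namely Hoxa2 to Hoxa5 and Hoxb2 to Hoxb5. The opposite order was found for 1, Hoxa6. The share of all genes with either order was not computed. With 2 libraries a stage, these counts are given as a description only. At P56 the sums were 207 for HoxB and 704 for HoxA.

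Between E18.5 and P28 only low-numbered HoxB genes were called, all of them lower. The HoxA and HoxB changes were not tested against each other. Of 12 members that passed the filter (at least 2 libraries with a value of 3 or more), limma called 4 lower and 0 higher at an adjusted p under 0.05. Among all 11954 genes tested 14.9% were called lower and 18.7% higher. The 4 were Hoxb2, Hoxb3, Hoxb4 and Hoxb5, all the HoxB genes tested from positions 2 to 5. The median log2 fold change was -0.57 over the 12 members and 0.01 over all genes. Fold changes are of log2(value + 1), a scale on which changes of low genes look smaller than they are.

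Hoxb5 (chr11:96303336-96306121, plus strand) was at 171 and 165 at E18.5, 123 and 104 at P0.5, 119.8 and 116 at P2, 93.5 and 86.4 at P7, 31.9 and 32.7 at P28, and 69.3 at P56. The P28 libraries were the lowest and did not overlap any other stage. The log2 fold change from E18.5 to P28 was -2.34 (SE 0.19, adjusted p = 2.68e-08), a 5.20-fold lower mean value. Most of it came after P7, where the step to P28 was -1.45 (SE 0.19, adjusted p = 2.21e-05).

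Hoxb2, a patterning gene of the hindbrain, was at 10.7 and 10.7 at E18.5, 8.81 and 8.61 at P0.5, 8.89 and 5.76 at P2, 4.73 and 3.76 at P7, 1.18 and 1.20 at P28, and 22.4 at P56. Up to P28 it was never higher at a later stage than in either E18.5 library, and both P28 libraries were far below all others. From E18.5 to P28 it changed by -2.41 (SE 0.39, adjusted p = 9.67e-05), and from P7 to P28 by -1.25 (SE 0.39, adjusted p = 0.029). Those P28 values rest on 4 and 3 reads, near the limit that a count of 0 allows.

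Hoxb4, best known for expanding blood stem cells when overexpressed, was at 9.27 and 14.9 at E18.5, 9.13 and 11.6 at P0.5, 7.11 and 10.97 at P2, 3.94 and 5.01 at P7, 0.591 and 3.59 at P28, and 86.2 at P56. Again the P28 libraries were the lowest, with 2 and 9 reads, and the P56 library the highest. The change from E18.5 to P28 was -2.24 (SE 0.46, adjusted p = 0.000896).

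Hoxb3, another hindbrain gene, was at 13.8 and 14.1 at E18.5, 13.2 and 26.6 at P0.5, 10.3 and 6.86 at P2, 8.40 and 10.02 at P7, 7.68 and 3.99 at P28, and 14.4 at P56. Its P28 values overlapped those of P2 but not those of E18.5. The change from E18.5 to P28 was -1.18 (SE 0.40, adjusted p = 0.0269), and it did not pass without E18.5 replicate 1 (adjusted p = 0.0789), E18.5 replicate 2 (0.0953) or P28 replicate 2 (0.229), nor without the filter (0.101).

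**Figure D2:**
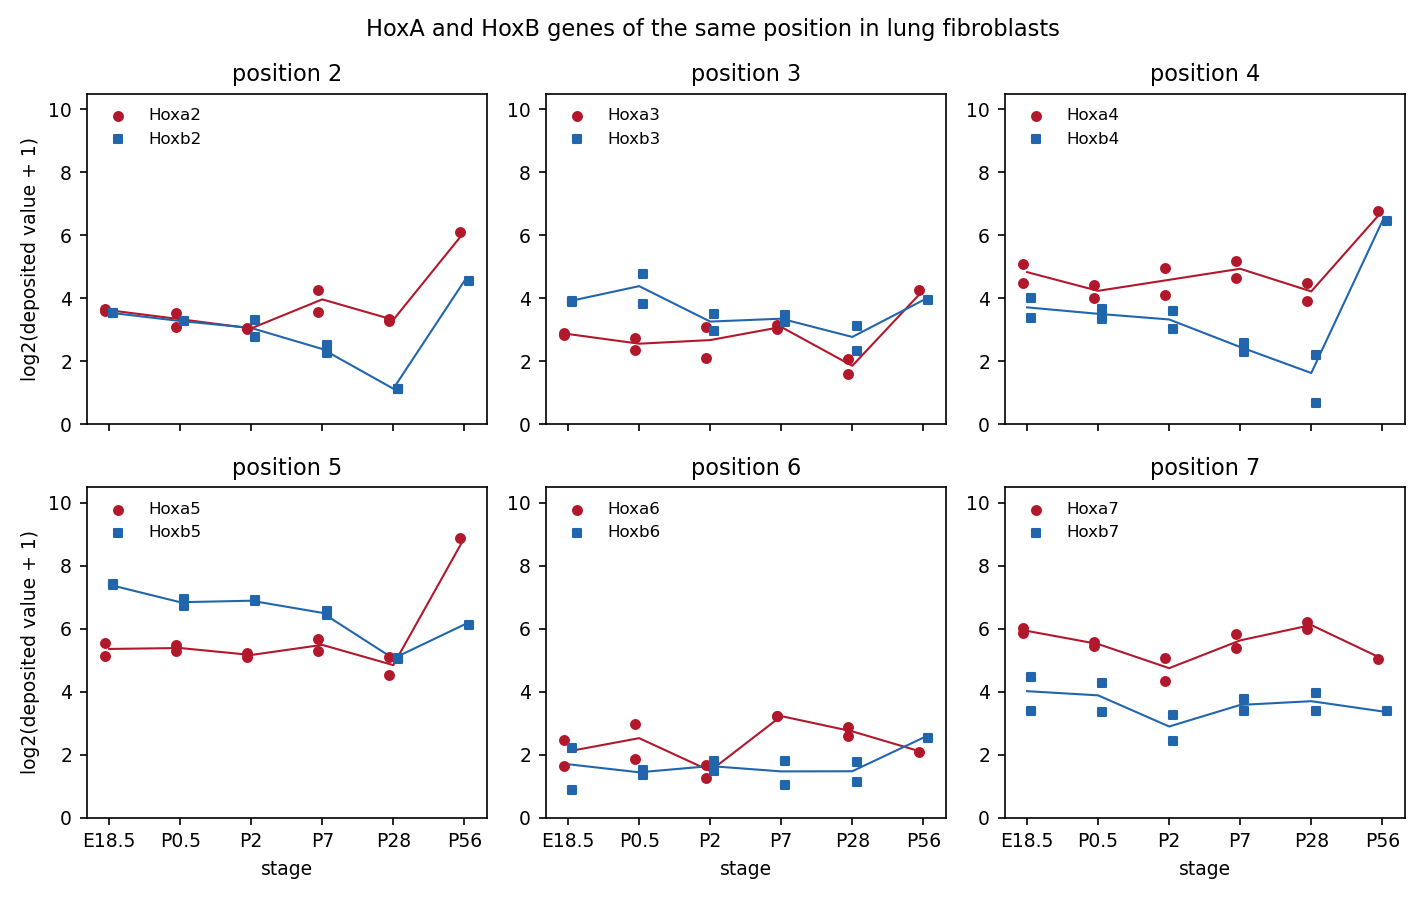
Level in each fibroblast library (y axis, log2 of the deposited value plus 1) by stage (x axis) for the HoxA (red circles) and HoxB (blue squares) gene of each position from 2 to 7, with lines through the stage means. Hoxb2, Hoxb4 and Hoxb5 descend to P28. Hoxa5 is at 46.1 and 34.1 at E18.5, 33.7 and 21.9 at P28, and 471 at P56.

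The HoxA paralogues of the same positions did not pass over this interval, although their changes were negative too. For Hoxa3 the change (-1.03, SE 0.43) was near that of Hoxb3 (-1.18, SE 0.40). Hoxa5 (chr6:52201754-52204587, minus strand) was at 46.1 and 34.1 at E18.5, 38.1 and 43.8 at P0.5, 33.8 and 36.2 at P2, 49.9 and 38.0 at P7, 33.7 and 21.9 at P28, and 471 at P56. The stages before P28 overlapped, the P28 libraries were the lowest, and the P56 library was far above all others. The change from E18.5 to P28 was -0.53 (SE 0.26, adjusted p = 0.123), and it passed without P28 replicate 1 (-0.83, adjusted p = 0.0462).

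Hoxa4, which patterns neck vertebrae, was at 21.6 and 33.3 at E18.5, 15.1 and 20.6 at P0.5, 29.9 and 16.2 at P2, 35.4 and 23.8 at P7, 21.3 and 13.96 at P28, and 108 at P56. Its libraries at the first 5 stages formed one broad range, and the change to P28 was -0.61 (SE 0.34, adjusted p = 0.178). Hoxa2, the identity gene of the second pharyngeal arch, was at 11.5 and 11.1 at E18.5, 10.7 and 7.49 at P0.5, 7.11 and 7.40 at P2, 18.4 and 10.9 at P7, 9.15 and 8.77 at P28, and 67.9 at P56. Before P56 its highest value was at P7, and the change from E18.5 to P28 did not pass (-0.30, SE 0.34, adjusted p = 0.536).

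Hoxa3, needed for the thymus and parathyroid, was at 6.18 and 6.40 at E18.5, 5.66 and 4.12 at P0.5, 7.47 and 3.29 at P2, 7.09 and 7.93 at P7, 3.25 and 1.99 at P28, and 18.1 at P56. Its P28 libraries were the lowest. The step from P7 to P28 passed (-1.25, SE 0.43, adjusted p = 0.0471), but the whole interval from E18.5 did not (-1.03, SE 0.43, adjusted p = 0.076). The annotated Hoxa3 gene spans Hoxa4, Hoxa5 and Hoxa6 on the same strand, and Hoxaas3 lies antisense to Hoxa3 through Hoxa7. No source used here says how tags were assigned there, so the split of reads among these genes is uncertain. On the HoxB side Hoxb5os overlaps Hoxb5 and Hoxb6 on the opposite strand, and Hoxb3os overlaps Hoxb2 and Hoxb3.

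The ratio of reads between paralogues also shifted within libraries. Hoxa5 had 0.270 and 0.206 reads per Hoxb5 read at E18.5, 0.534 and 0.440 at P7, 1.06 and 0.671 at P28, and 6.80 at P56. Hoxa2 had 1.08 and 1.04 reads per Hoxb2 read at E18.5, 3.89 and 2.89 at P7, 7.75 and 7.33 at P28, and 3.03 at P56, where the P28 ratios rest on 4 and 3 Hoxb2 reads (95% intervals 2.74 to 30.2 and 2.203 to 38.3, counting error only). At both positions the P28 ratios were above those of every earlier library. Hoxa4 over Hoxb4 went from 2.33 and 2.23 at E18.5 through 9.0 and 4.75 at P7 to 36.0 and 3.89 at P28 (intervals 9.61 to 303 and 1.83 to 9.20), so that the lower P28 ratio was under both P7 ratios, and was 1.25 at P56. Hoxa3 over Hoxb3 was at 0.449 and 0.455 at E18.5, 0.844 and 0.792 at P7, 0.423 and 0.500 at P28, and 1.26 at P56, so its P7 ratios were above those of P28. The ratios were not tested.

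The genes of positions 6 and 7 were not called between E18.5 and P28 in either cluster. Hoxa7, expressed in the thoracic region of the embryo, was at 63.5 and 56.7 at E18.5, 46.6 and 43.0 at P0.5, 19.2 and 32.6 at P2, 56.7 and 40.5 at P7, 74.1 and 63.0 at P28, and 32.1 at P56. Its stage mean was lowest at P2 and highest at P28, and the overall change was 0.18 (SE 0.26, adjusted p = 0.631). Hoxb7 was at 21.1 and 9.38 at E18.5, 18.3 and 9.36 at P0.5, 8.53 and 4.39 at P2, 9.45 and 12.5 at P7, 14.5 and 9.57 at P28, and 9.40 at P56. Its E18.5 replicates lay far apart, both P2 libraries were below all others, and the change from E18.5 to P28 did not pass (-0.24, SE 0.44, adjusted p = 0.707).

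Hoxa6 and Hoxb6 had the lowest means of the 12 over all fibroblast libraries, although at P7 and P28 Hoxa6 was above Hoxb2 and Hoxb4. Hoxa6 was at 4.49 and 2.13 at E18.5, 6.92 and 2.62 at P0.5, 1.42 and 2.19 at P2, 8.40 and 8.35 at P7, 5.02 and 6.38 at P28, and 3.22 at P56. Its P7 libraries were the 2 highest. Hoxb6 was at 3.65 and 0.853 at E18.5, 1.57 and 1.87 at P0.5, 1.78 and 2.47 at P2, 1.05 and 2.51 at P7, 1.18 and 2.39 at P28, and 4.83 at P56, with overlapping stages up to P28.

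**Figure D3:**
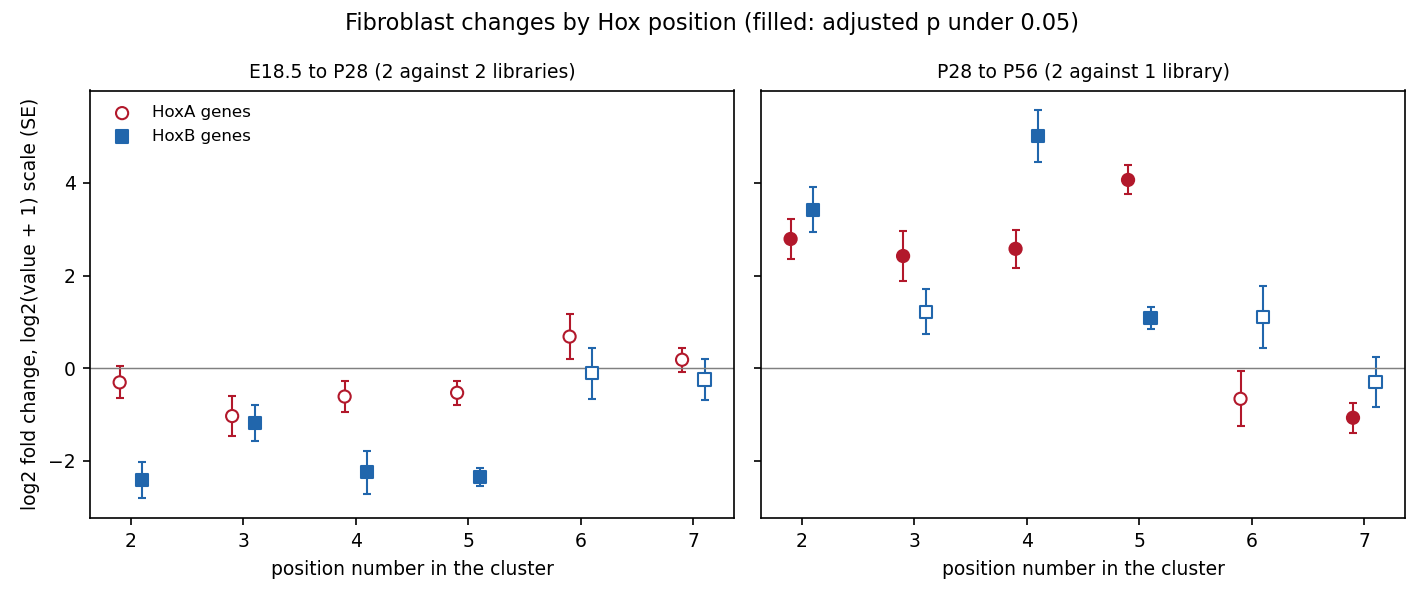
Log2 fold change with its SE (y axis, log2 of value plus 1) by position number (x axis) for HoxA (red circles) and HoxB (blue squares) genes in fibroblasts, E18.5 to P28 on the left and P28 to P56 on the right, filled where the adjusted p is under 0.05. On the left the 4 filled points are HoxB positions 2 to 5, and on the right 7 points of positions 2 to 5 are filled above 0 and Hoxa7 is filled below 0. Both panels share the P28 libraries.

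Single steps gave few calls. From E18.5 to P0.5 limma and edgeR both called 0 of 12, against 15.4% and 14.9% of all genes called in either direction, and 1 member, Hoxb5, had an unadjusted p under 0.05 in limma (0.00922) and 1 in edgeR. From P0.5 to P2, 1 was lower, Hoxa7 (-0.81, SE 0.26, adjusted p = 0.0405), against 7.2% of all genes. From P2 to P7, 2 were higher, Hoxa7 (0.91, SE 0.26, adjusted p = 0.0444) and Hoxa6 (1.75, SE 0.48, adjusted p = 0.0338), against 2.36%. From P7 to P28, 3 were lower, Hoxb5, Hoxb2 and Hoxa3, against 9.49%. The lower call of Hoxa7 at P2 was lost without P0.5 replicate 1 (adjusted p = 0.191), P0.5 replicate 2 (0.148) or P2 replicate 1 (0.412), and its higher call at P7 without P2 replicate 1 (0.438) or P7 replicate 1 (0.262). Hoxa6 did not pass in any fit without one of the 4 libraries of its step (adjusted p = 0.0831 to 0.225), and of the 3 calls from P7 to P28 only Hoxb5 passed in each such fit (Hoxb2 had adjusted p = 0.0508 to 0.132). Hoxa3 also missed with edgeR (adjusted p = 0.0534) and without the P56 library in the fit (0.0519).

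At P56 the fibroblast library was high in Hox genes of positions 2 to 5. The group is 1 library, assumed in the fit to vary like the other groups, so the comparison has no replicate check at P56. Between P28 and P56, 7 of 12 members were called higher and 1 lower, against 12.2% and 19.1% of all genes. The 7 were Hoxa2, Hoxa3, Hoxa4, Hoxa5, Hoxb2, Hoxb4 and Hoxb5, so 7 of the 8 tested genes of positions 2 to 5. Of the 4 of positions 6 and 7, none was higher and Hoxa7 was lower. The median log2 fold change was 1.82 over the members and -0.12 over all genes, and on RPM the latter was 0.26.

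Hoxb4 changed most on the log scale, by 5.01 (SE 0.56, adjusted p = 2.93e-06), and Hoxa5 gained the most in value, from a mean of 27.8 at P28 to 471, a log2 fold change of 4.07 (SE 0.31, adjusted p = 3.31e-08). For Hoxa5 the P56 library held 3508 reads, against 55 to 190 in the others. Hoxb2 rose by 3.42 (SE 0.48, adjusted p = 3.12e-05) and Hoxa2 by 2.79 (SE 0.42, adjusted p = 6.51e-05). Hoxa4 rose by 2.58 and Hoxa3 by 2.42. Hoxb5 rose by 1.08 (SE 0.24, adjusted p = 0.00191) but, at 69.3, was below both P7 libraries.

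Hoxb3 did not pass (1.22, SE 0.48, adjusted p = 0.0627), although it did with edgeR (adjusted p = 0.0236). Hoxb6 (1.10, adjusted p = 0.224), Hoxa6 (-0.66, adjusted p = 0.427) and Hoxb7 (-0.30, adjusted p = 0.718) did not pass either. Hoxa7 fell by 1.07 (SE 0.32, adjusted p = 0.0168), and this call was lost on RPM (-0.65, adjusted p = 0.125), without P28 replicate 1 (0.0797) and without the filter (0.0799). On that scale, which was added after seeing the data, the same 7 genes were called higher, joined by Hoxb3.

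For 7 of the 12 members the P56 value was above all 10 earlier libraries (58.3%), as it was for 21.3% of all genes tested. These were Hoxa2, Hoxa3, Hoxa4, Hoxa5, Hoxb2, Hoxb4 and Hoxb6. Positions 2 to 5 together took 94.1% of the Hox reads at P56 (Wilson interval 93.5% to 94.7%), against 53.2% and 52.0% at P28 and 75.5% and 80.6% at E18.5. Because the E18.5 to P28 and the P28 to P56 comparisons share the P28 libraries, the opposite signs of Hoxb2, Hoxb4 and Hoxb5 are not independent.

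Cell markers moved over the same intervals. From E18.5 to P28 the summed matrix markers went from 14956 and 17258 to 34056 and 34284, the 5 mesothelial markers from 150.3 and 167 to 409 and 491, and the 8 leukocyte markers from 4.21 and 23.0 to 41.0 and 124. At P56 those sums were 14643, 202 and 2.01. There all 16 matrix markers were above 0, but of the mesothelial markers only Upk1b and Lrrn4 were, with Msln, Wt1 and Upk3b at 0, and of the leukocyte markers 5 of 8, with Ptprc, which encodes CD45, at 0.134. The 5 erythroid markers summed to 657 and 2869 at P28 and to 0.134 at P56, with 1 of 5 above 0. The 6 pericyte and smooth muscle markers summed to 33.1 and 44.3 at P28 and to 55.9 at P56. The 8 epithelial markers summed to 121 and 133 at E18.5, 15.7 and 40.7 at P28 and 13.0 at P56, and the 7 endothelial markers to 14.9 at P56. The part of these shifts, or of the depth of the P56 library, in the Hox results was not tested.

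Of the TALE cofactors, 0 of 9 were higher and 4 lower in fibroblasts between E18.5 and P28, where 18.7% and 14.9% of all genes were. Meis3 went from 174 ± 14.4 to 78.0 ± 12.1 (SD, n = 2), a change of -1.15 (SE 0.22, adjusted p = 0.000544). Pbx2 (-1.66), Meis1 (-1.04) and Meis2 (-0.89) were also lower. From P28 to P56, 1 was higher, Meis2 (1.60, adjusted p = 0.0043), and 2 were lower, Pbx3 among them (-1.55, adjusted p = 0.00887), against 12.2% and 19.1% of all genes.

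Of the Polycomb genes, 2 of 21 tested were higher at P28 than at E18.5 and 3 lower, against 18.7% and 14.9% of all genes, with Cbx7 (2.13, listed at 0 in both E18.5 libraries) among the higher and Ring1 (-0.76) and Pcgf2 (-1.09) among the lower. At P56, 8 were higher and 4 lower than at P28, against 12.2% and 19.1% of all genes. Ezh2, the H3K27 methyltransferase, was at 140 ± 11.2 at P28 and 37.2 at P56 (-1.89, adjusted p = 7.77e-06), and Cbx7 was at 3.37 ± 0.2498 and 35.2 (3.05, adjusted p = 0.00111). Of 12 Trithorax genes and H3K27 demethylases, 1 was higher at P28 than at E18.5, Kdm6b (1.28, adjusted p = 0.000131), and 2 were lower, Ash2l (-0.96) and Kmt2b (-0.86). From P28 to P56, 1 was higher, Psip1 (1.57), and 1 lower, Kmt2c (-1.38).

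Of 6 tested upstream regulators, 2 were higher at P28 than at E18.5 and 1 lower, against 18.7% and 14.9% of all genes. Among them the retinoic acid synthesis gene Aldh1a2 was higher (2.79, adjusted p = 0.000154) and the receptor gene Rara was lower (-1.17, adjusted p = 0.000447). At P56 Aldh1a2 (-1.64) and Rara (-0.85) were lower than at P28. Of 9 tested genes flanking the clusters, only Mtx2, beside HoxD, was called in the first interval (-1.25, adjusted p = 0.000497), and it was called higher in the second (2.42, adjusted p = 6.89e-06). In the second interval the other flanking gene called was Hnrnpa3 (-1.14). In that interval 12.2% of all genes were called higher and 19.1% lower. Of 19 noncoding RNAs of the clusters 5 were listed and 2 tested. Hoxaas2 was lower at P28 than at E18.5 (-1.46, adjusted p = 0.0459) at means under 3 in both, and Hoxb5os was not called (-0.53, adjusted p = 0.513).

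The epithelium carried traces of the same genes. In the joint fit of 20 libraries from the 5 shared stages, members passed the filter only through their fibroblast values, so their direction was favoured by the filter and their count is given as a description. The 11 that passed were all lower in the epithelium in the mean of the stages, as were 29.9% of 13386 genes. All 11 were also called lower at E18.5 alone, where 16.9% of all genes were, and at P28 alone, where 18.5% were. At P28 the call of Hoxb2 was lost without any 1 of the 4 libraries of that stage (adjusted p = 0.075 to 0.081), and that of Hoxb4 without epithelial replicate 1 (0.077), epithelial replicate 2 (0.0733) or fibroblast replicate 2 (0.353). In the test of a cell type difference in the change from E18.5 to P28, 1 of 11 members was called, Hoxb2, against 5.23% of all genes in that direction. The epithelium had 0 Hoxb2 reads in all 4 libraries of these stages, and with edgeR the call was lost (adjusted p = 1).

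In joint CPM, which scales both cell types together, Hoxb5 averaged 1.88 ± 1.89 in epithelial and 100.2 ± 44.3 in fibroblast libraries (SD, n = 10). Its log2 difference was -5.27 (SE 0.21), given as a description because the filter favoured this direction. Hoxa7 was at 0.743 ± 1.22 and 47.9 ± 16.2 (-4.97), and Hoxa5 at 0.411 ± 0.514 and 36.2 ± 7.497 (-4.77). In none of the 3 did the ranges of the cell types overlap, but they passed the filter only through their fibroblast values. The share of all genes without overlap was not computed. Hoxa6 had 0 epithelial reads against 147 in fibroblasts, which makes it at least 54.0-fold higher in fibroblasts with a floor of 3 reads over the group.

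**Figure D4:**
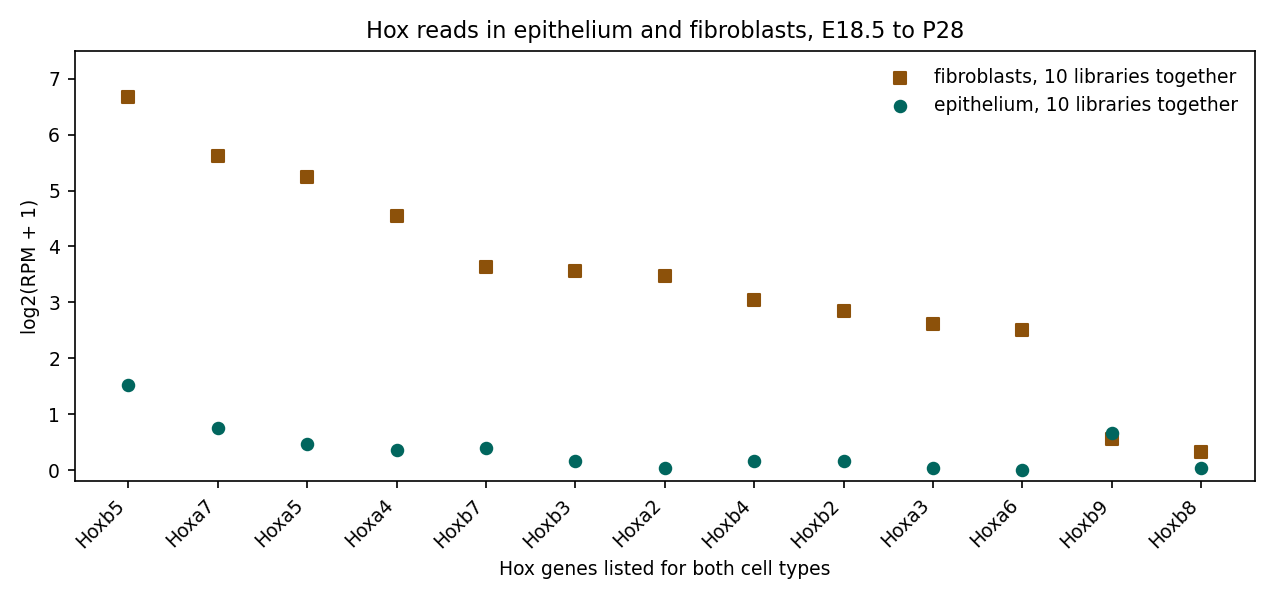
RPM of the pooled libraries (y axis, log2 of RPM plus 1) of 13 Hox genes listed for both cell types (x axis), in 10 fibroblast libraries (brown squares) and 10 epithelial libraries (green circles) from E18.5 to P28. Fibroblasts are far above the epithelium for the 11 genes from Hoxb5 to Hoxa6, while Hoxb9 is at 0.578 RPM in the epithelium and 0.477 in fibroblasts.

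Pooled over the 5 stages, the epithelium held 0% to 2.78% of the fibroblast RPM for the 11 members, with a median of 1.30%. Single libraries went beyond this, as for Hoxb7 at E18.5, with deposited values, normalised separately by cell type, of 3.57 and 0 in the epithelium and 21.1 and 9.38 in fibroblasts. For the 16 matrix markers the range was 0.386% to 36.2%, the highest being Col6a1, with a median of 0.720%. For the 5 mesothelial markers it was 1.37% to 798%, the highest being Msln. Whether the epithelial Hox reads come from other cells in the sort was not tested.

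Of the TALE cofactors, 3 of 9 were higher in the epithelium and 6 lower, against 32.5% and 29.9% of all genes. Meis1 (-4.98), Pknox2 (-3.79) and Meis3 (-2.64) were among the 6 lower in the epithelium, in the same direction as the Hox genes. The 3 higher cofactors went the other way.

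The epithelial reads were also uneven between replicates. Hox RPM was 9.02 and 4.92 at E18.5, 8.12 and 3.76 at P0.5, 9.64 and 3.29 at P2, 6.25 and 0.843 at P7, and 0 and 0.301 at P28. Replicate 1 was the higher at the first 4 stages, although the labels do not say whether the replicate numbers pair samples. Matrix markers in the same libraries were at 236 and 193, 258 and 319, 459.7 and 219, 98.7 and 125, and 58.0 and 76.9 RPM. Mesothelial markers were at 400.3 and 393, 225 and 195, 129 and 83.9, 34.3 and 9.83, and 2.86 and 9.64 RPM. The mesothelial sums had the same replicate order as the Hox reads at all 5 stages, and the matrix sums had the opposite order at P0.5 and P7. The mesothelial sums were close at E18.5, and the Hox order at P28 rests on 0 against 1 read. Most mesothelial reads were of Msln, with 4886, against 130 of Upk1b and 3 to 5 of each of the others. The part of these markers in the epithelial Hox reads was not tested.

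Hoxb5 had 65 epithelial reads in 7 of 10 libraries, with at most 17 in one. Hoxa7 had 24 reads in 4 libraries, of which 23 were in replicate 1 of E18.5, P2 and P7. All 11 reads of Hoxb7 were in E18.5 replicate 1, in which Hoxb5 had 0. Hoxa5 had 13 reads, Hoxa4 10, Hoxb2, Hoxb3 and Hoxb4 4 each, and Hoxa2, Hoxa3, Hoxb8 and Hoxd1 1 each. No epithelial member passed the filter of the stage comparisons, in which 24.9% of 12143 genes were called in either direction from E18.5 to P28.

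Hoxb9, a gene of the trunk and of the rib cage in mice, was the exception to the ratio between cell types. It had 20 reads in the epithelium and 15 in fibroblasts over the shared stages, so the epithelium was at 121% of the fibroblast RPM (95% interval 58.9% to 254%, counting error only). The epithelial reads were 4 and 7 at E18.5, 3 and 2 at P0.5, 0 and 2 at P2, 0 and 2 at P7, and 0 and 0 at P28. Set per 100 Hoxb5 reads, Hoxb9 had 30.8 in the epithelium (17.7 to 51.5) and 0.472 in fibroblasts (0.264 to 0.780). The other members compared in this way did not depart as far, such as Hoxa7 with 36.9 in the epithelium and 47.7 in fibroblasts. The largest departure among them, in the other direction, was Hoxa2. It had 1.54 in the epithelium (0.0384 to 8.88, from 1 read) and 9.97 in fibroblasts (8.86 to 11.2). Hoxb9 did not reach the joint filter, and without that filter limma did not call it among the 14 members then tested. In the epithelium alone, without the filter, limma called its change from E18.5 to P28, as it did for 2731 of 22876 genes.

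The remaining members were rare. In fibroblasts Hoxb8 had 8 reads over the 10 earlier libraries, and all 9 reads of Hoxa10 were in P2 replicate 2. Hoxb1, Hoxc4, Hoxc5 and Hoxc6 were above 0 in 1 or 2 of 11 libraries each. Among HoxD genes, Hoxd1 had 1 epithelial read, and Hoxd3 and Hoxd9 had 0 in 34684186 reads. At these counts, differences between stages were not detectable.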

How the data were processed

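Poly(A) RNA was amplified and sequenced as 3'SAGE-seq tags on an Ion Proton, per the labels' protocols. Per the submitters' processing notes, the build was mm10 and Bowtie2 2.2.5 and R 3.4.0 were used. No source used here states the normalisation. The authors deposited a normalised signal for each gene, with 1 scale factor a library: dividing by the smallest step gave whole reads for 100% of values within 0.01 of a read. Amplified reads carry no molecular identifiers, so intervals and limits cover counting error only.

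Stages were compared within a cell type on the deposited signal with limma 3.58.1 (R 4.3.3, mean-variance trend) on log2(value + 1), for genes at 3 or more in at least 2 libraries, with 1 mean per stage and Benjamini-Hochberg adjustment over all genes tested (two-sided, threshold 0.05). The count test planned first did not suit a normalised unit, and edgeR 4.0.16 on recovered reads became an alternative. Cell types, normalised separately by the authors, were compared in a joint limma fit of recovered reads over 20004 shared genes, scaled with TMM to 1e+06 (joint CPM). Other alternatives were no filter, a pseudocount of 0.5, median-ratio scaling (DESeq2 1.42.0), the replicate block and leaving out each library. The script was tested on simulated data. Members and gene lists were chosen with earlier results of these data known. Members are named, with values by library for the 12 highest in fibroblasts, and at most 4 genes of each other list, those past the threshold with the smallest p, except Hoxb5os, chosen after its values were seen. A few results are not reported here. Libraries of a group differed by more than sampling noise (chi-square over degrees of freedom 4.64 to 10.6).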

Additional observations from a re-analysis of the deposited data

Results flagged for a closer look

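Hoxb2 differed between the cell types in its change from E18.5 to P28, by a log2 interaction of 2.37 (SE 0.53, limma adjusted p = 0.0037), the only one of 11 members called. Among all 13386 genes 5.23% were called in this direction. The epithelium had 0 Hoxb2 reads in all 4 libraries of these stages, so the term holds the fibroblast decline alone, and a gene at 0 had no room to fall. With edgeR on recovered reads the call was lost (adjusted p = 1).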

How the results depend on the processing

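The counts of fibroblast calls from E18.5 to P28 and from P28 to P56 and of calls between the cell types (mean of the stages, E18.5 and P28) moved by less than 1.5 times in each alternative run. Leaving out single libraries gave 3 to 5 calls from E18.5 to P28 (4 with all), 8 from P28 to P56 (8), 1 to 2 from P7 to P28 (3), 0 to 1 from P0.5 to P2 (1), 0 to 1 from P2 to P7 (2), and 1 to 2 for the difference between cell types in the change (1), with Hoxb5 added without epithelial E18.5 replicate 2 and Hoxb4 without fibroblast P28 replicate 2. Without the filter 1 fibroblast member was called from E18.5 to P0.5 (Hoxb5, with 0 before), 0 from P0.5 to P2 and 0 from P2 to P7. In the epithelium 1 of 13 was then called from E18.5 to P28 (Hoxb9), against 2731 of all 22876 genes. The cause of these moves was not tested beyond the larger number of genes adjusted over. With edgeR 2 members were called from P0.5 to P2 and 0 for the difference between cell types in the change, where the uncalled terms of Hoxb5 (1.42 to -2.69), Hoxb4 (1.84 to -0.61), Hoxa4 (0.11 to -3.11) and Hoxa5 (0.00 to -3.21) turned sign, and the cause was not tested.

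Among fibroblast comparisons, direction reversed for Hoxb7 and Hoxb6, neither of them called: leaving out single libraries gave -0.79 to 0.30 for Hoxb7 and -0.77 to 0.21 for Hoxb6 from E18.5 to P28, and the sign turned for Hoxb7 from P28 to P56 on RPM (0.10). The cause was not tested. With the replicate block the counts did not move (4 from E18.5 to P28, 8 from P28 to P56, 11 in the joint mean). Correlations of same-numbered deviations were -0.04 to 0.04 across fibroblast stages, -0.06 to 0.07 across epithelial stages and -0.05 to 0.10 between cell types. Such values cannot exclude that same-numbered samples came from the same animals, which the labels do not say. Depth limits the epithelium most, where a library held 0 to 35 Hox reads, and P56 rests on 1 library.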
